A study of Mus musculus with 12 samples.

Results

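Imprinted genes are expressed mainly or only from the copy inherited from 1 parent. The 34 imprinted mouse genes described here were taken by name from 15 well-known imprinted domains, and each matched 1 Ensembl identifier among the 55413 genes of the deposited expression table. The usual allele is the paternal one for 19 of them and the maternal one for 15. They were read in RNA-seq libraries from cultured cells of BALB/c mouse paws, labelled as synovial fibroblasts, after joint inflammation by monosodium urate (MSU) crystals, the crystals of gout. All 12 libraries came from skinned, collagenase-digested paws, with cells of 2 to 3 paws pooled and grown for 5 passages. Each paw had MSU on day 9, and RNA was taken on day 18. Vehicle-treated mice gave 3 libraries from right paws that had only that injection (non-primed) and 3 from left paws that had a first injection on day 0 (primed vehicle). The other 6 libraries are labelled primed as well. For 3 of them the mice received I-BET151, an inhibitor of the BET bromodomain proteins that read acetylated histones, at 20 mg/kg per day into the peritoneum from the day before the first injection (in vivo). For the other 3 the cultured cells had 1 µM I-BET for 24 h before harvest (in vitro). Priming and body side cannot be told apart, since every primed paw of the vehicle mice is a left paw. Nothing in the labels ties libraries to separate animals, so p-values measure the spread between these libraries, which may be technical.

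In an imprinted domain a differentially methylated control region, set in the germ line, decides which parental copy each gene uses. ZFP57 and ZFP445 bind the methylated copy and bring TRIM28 and histone methylation to it, and DNMT1 with UHRF1 copies the DNA methylation at cell division. Many imprinted genes act on growth, with paternally expressed genes such as Igf2, Dlk1, Peg3 and Mest often favouring it and maternally expressed genes such as H19, Grb10 and Igf2r often restraining it, and long noncoding RNAs such as Airn and Kcnq1ot1 silence their neighbours. Fibroblasts are among the cells in which many of these genes remain active after birth. BALB/c is an inbred strain, so reads of the 2 parental copies cannot be told apart and every value here is the sum over both. Neither the imprint itself nor loss of imprinting was measured.

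The values are regularized log2 expression (rlog), a log2 count scale that pulls low genes towards their mean, so differences of low genes are understated. The sequencing depth behind them is unknown. Libraries are numbered 1 to 3 within each group as in their titles, and values are given in that order. Of the 34 genes, 27 had a mean rlog of at least 3 over the 12 libraries and were tested. The other 7 are low in all groups or nearly so: Igf2 ranged from 0.13 to 2.97, Zim1 from 0.45 to 4.90, Usp29 from -0.08 to 2.29, Rtl1 from -0.01 to 1.75, Rasgrf1 from -0.53 to 2.51, Magel2 from -1.21 to -0.29 and Phlda2 from 0.94 to 5.45. Set on a per-length scale (mean rlog minus log2 of the exon length in kb), Cd81 at 13.70, Gnas at 13.05 and Igf2r at 11.78 were the highest of the 34, and Usp29 at -3.33 the lowest.

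2 libraries stand apart from their labels. Over the 16459 tested genes the library labelled non-primed 3 differed from in vivo 2 and 3 by a median of 0.107 and 0.098 rlog, close to the 0.0898 between those 2, and from non-primed 1 and 2 by 0.48 and 0.482. The library labelled in vivo 1 differed from the 3 in vitro libraries by 0.149 to 0.22 and from in vivo 2 and 3 by 0.648 and 0.649. Hexim1, whose rise is widely used as a readout of BET inhibition, stood at 14.26 in the library labelled non-primed 3 against 12.19 and 12.25 in the other non-primed ones, 11.98 to 12.39 in primed vehicle and 13.85 to 14.23 in the treated libraries. A fit that leaves both out, called the 10-library fit below, is given beside the fit of all 12 libraries where it changes a call or moves a value by over 1.5 times.

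The cells in the libraries also differ. Markers of pigment cells (15 melanocyte genes such as Dct, Tyr and Mlana) had a mean rlog of 12.60 to 13.97 in the 3 non-primed libraries and of 12.61 and 12.60 in in vivo 2 and 3, but of 5.61 to 6.69 in the other 7. The log2 of their summed level was 19.30 to 20.04 in those 5 and 12.63 to 13.81 in the other 7. Ednrb, 1 of the 15, went the other way, at 3.28 to 5.31 in those 5 and 5.80 to 9.35 in the other 7. Sox10 was still at 10.17 to 13.36 in the other 7. The 10 fibroblast markers, collagens and Pdgfra among them, had a mean of 14.80 to 15.79 in those 7 libraries, 9.81 to 11.49 in 4 of the pigment-rich ones and 7.58 in the library labelled non-primed 3. The mean of the 8 macrophage markers was 3.70 to 6.67 in the pigment-rich libraries and 7.88 to 10.20 in the others, and none of these 3 lists had a member at 0 in all libraries. All 10 fibroblast markers were detected in each library. Over the 12 libraries the endothelial mean was 1.79 to 4.82, the Schwann cell mean 6.92 to 9.51, the skeletal muscle mean 2.05 to 5.96, the chondrocyte mean 4.67 to 9.72 and the keratinocyte mean -1.19 to -0.22. In bulk RNA, fewer cells of a type and less RNA per cell cannot be told apart, and the part of this difference in each result below was not tested.

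**Figure D1:**
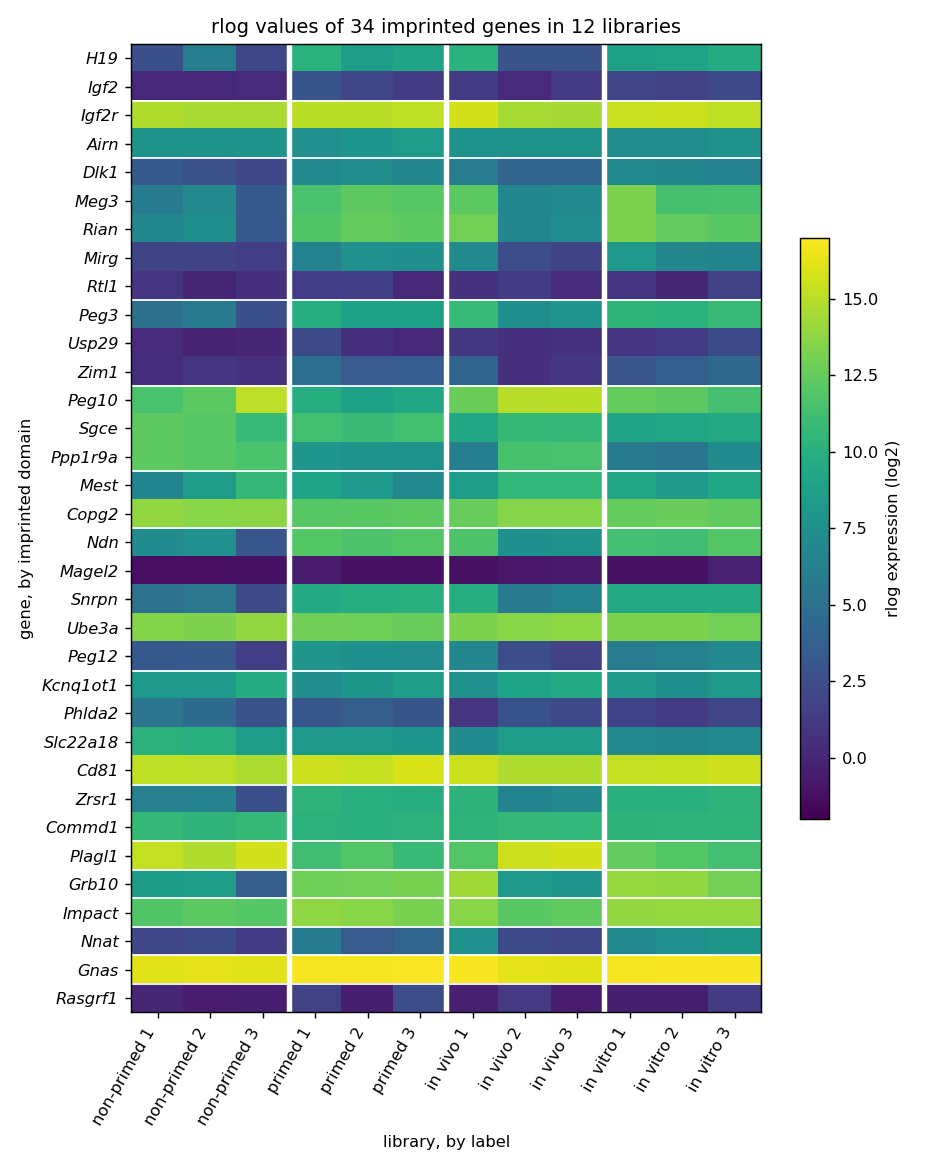
Heat map of the rlog value (log2, colour scale) of the 34 imprinted genes (rows, by domain, separated by thin white lines) in the 12 libraries (columns, by label; thick white lines separate groups). The library labelled in vivo 1 looks like the in vitro columns, and in vivo 2 and 3 look like the non-primed ones: Meg3 is at 12.18 in the first and at 6.75 and 7.02 in the other 2.

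Across the 12 libraries the imprinted genes fell into a fibroblast-side set and a pigment-side set. In the 5 pigment-rich libraries 16 of the 27 tested genes were below every one of the other 7, 5 were above every one, and 6 overlapped. These 21 genes are 77.8% of the 27, beside 43.9% of all tested genes. The 16 lower ones were H19, Igf2r, Dlk1, Meg3, Rian, Mirg, Peg3, Ndn, Snrpn, Peg12, Cd81, Zrsr1, Grb10, Impact, Nnat and Gnas. The 5 higher ones were Ppp1r9a, Copg2, Ube3a, Slc22a18 and Plagl1. Peg10, Sgce, Mest, Airn, Kcnq1ot1 and Commd1 overlapped. Both sets hold genes of either parental class. The split was made from marker levels seen in these data, so it is a description without a test.

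Primed vehicle cultures differed from non-primed ones in most of the imprinted genes. In a limma fit over all genes and all 12 libraries, 13 of the 27 rose and 7 fell at an adjusted p under 0.05, together 74.1%, while 51.8% of all tested genes were called (28.9% higher and 22.9% lower). The 5 largest increases were in Meg3, Rian, Grb10, Ndn and H19, and the 3 largest decreases in Ppp1r9a, Plagl1 and Peg10. The median difference of the 27 was 0.61, against 0.05 over all genes. Of the 14 tested genes of the paternal class 7 rose and 2 fell, and of the 13 of the maternal class 6 rose and 5 fell. Without the libraries labelled non-primed 3 and in vivo 1, 16 rose and 8 fell (63.4% of all genes), and all 20 calls were among these 24. With only the 6 libraries compared 15 rose and 6 fell (48.9% of all genes). All 3 non-primed libraries are rich in pigment-cell transcripts and all 3 primed vehicle ones are not. Priming and cell make-up thus cannot be told apart in this comparison. The same holds for its results for single genes and lists below, where a gene is said to rise or fall with priming.

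I-BET in vivo was followed by calls in 8 of the 27 genes, 29.6% against 39.7% of all tested genes (17.9% higher and 21.8% lower). Peg10, Plagl1, Copg2, Ube3a and Commd1 rose against primed vehicle, and Dlk1, Mirg and Peg12 fell. The 3 in vivo libraries are not alike: without in vivo 2 and 3, which leaves the library labelled in vivo 1 assumed to vary like the other groups, limma called none of the 27 (1.18% of all genes). With only the 6 libraries compared Peg10, Copg2 and Ube3a rose and Dlk1 fell (24.0% of all genes). The median difference of the 27 was -0.47, against -0.05 over all genes. In the fit without in vivo 2 and 3, 6 of the 27 had an unadjusted p under 0.05. Without the libraries labelled non-primed 3 and in vivo 1, 8 rose and 17 fell (68.4% of all genes). That fit keeps in vivo 2 and 3, with a melanocyte marker mean of 12.61 and 12.6, against 6.21 to 6.69 in primed vehicle. Its in vivo contrast is thus also one of pigment-rich against fibroblast-rich libraries. I-BET and cell make-up cannot be told apart in it, and the same holds for its in vivo results for single genes and lists below.

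I-BET in vitro gave 1 call among the 27 in the fit of all 12 libraries: Sgce fell by 1.89, beside 4.51% of all tested genes called (1.76% higher and 2.76% lower), and 5 of the 27 had an unadjusted p under 0.05. That fit takes its spread from all 4 groups, of which the non-primed and in vivo groups are uneven. With only the 6 libraries compared, Peg10, Nnat, Peg3, Copg2 and Ube3a rose and Sgce, Slc22a18, Ppp1r9a and Peg12 fell. These 9 are 33.3% of the 27, near the 30.3% of all genes called. Without the libraries labelled non-primed 3 and in vivo 1, 6 rose and 4 fell (35.7% of all genes), the 9 and Grb10. Values of the 3 in vitro and the 3 control libraries did not overlap in 11 of the 27, 7 higher and 4 lower, beside 48.4% of all genes. All 6 libraries are among the fibroblast-rich ones: the melanocyte marker mean was 6.21 to 6.69 in primed vehicle and 5.61 to 5.98 in vitro, the fibroblast mean 15.22 to 15.79 and 14.80 to 15.33. The median difference of the 27 was 0.09, against -0.02 over all genes.

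In vitro against in vivo, limma called none of the 27 and 0.0% of all genes, with 13 of the 27 at an unadjusted p under 0.05. Counts at an unadjusted p, here and in other paragraphs, have no share over all genes beside them. Without the libraries labelled non-primed 3 and in vivo 1, 16 of the 27 were higher in vitro and 9 lower (59.9% of all genes). In that fit the in vivo libraries are all pigment-rich and the in vitro ones are not, so treatment and cell make-up cannot be told apart. The 3 comparisons with primed vehicle share its 3 libraries, so their values are set side by side below and not correlated.

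All 4 tested genes of the Dlk1-Meg3 domain on chromosome 12 rose with priming. Dlk1 is a paternally expressed membrane protein that keeps precursor cells undifferentiated, and Meg3, Rian and Mirg are maternally expressed noncoding RNAs that follow each other on the + strand and carry microRNAs and small nucleolar RNAs. Meg3 spans chr12:109541001-109571726, and 2 annotated microRNA genes lie inside it on its strand, 4 inside Rian with 13 small nucleolar RNA genes, and 14 inside Mirg. The upstream RefSeq promoter window of Meg3 (GRCm38.p6, chr12:109540746-109541045, + strand) is shown because the RNAs that follow it moved together. Its capitals mark the hexamer TGCCGC or its reverse complement GCGGCA, the core that ZFP57 recognises when methylated.
Meg3: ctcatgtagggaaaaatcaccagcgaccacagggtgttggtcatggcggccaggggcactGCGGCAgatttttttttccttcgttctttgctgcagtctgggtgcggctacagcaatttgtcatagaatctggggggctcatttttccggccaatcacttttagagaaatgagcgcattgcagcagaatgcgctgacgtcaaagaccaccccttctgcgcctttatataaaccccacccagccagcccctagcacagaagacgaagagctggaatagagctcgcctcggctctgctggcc

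Meg3 stood at rlog 5.84, 6.93 and 3.36 in the non-primed libraries and at 11.52, 12.27 and 12.09 in primed vehicle. It was at 12.18, 6.75 and 7.02 in vivo and at 13.28, 11.39 and 11.49 in vitro. The primed vehicle, in vitro and in vivo 1 libraries are all high, the non-primed ones and in vivo 2 and 3 are all low, and nothing lies between. Rian went the same way, at 6.85, 7.48 and 3.24, then 11.81, 12.53 and 12.29, then 12.97, 6.75 and 7.35, and last 13.36, 12.44 and 12.15. The within-library difference Meg3 minus Rian stayed between -1.05 and 0.12, while Meg3 itself ranged over 3.36 to 13.28. Mirg, the distal RNA of the domain, was at 1.93, 1.90 and 1.47 in non-primed, 6.32, 7.64 and 7.57 in primed vehicle, 7.08, 2.50 and 1.93 in vivo and 8.27, 6.71 and 6.57 in vitro. Its non-primed values are near the floor of the scale, where rlog compresses differences.

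Dlk1 followed the noncoding RNAs of its domain although its usual allele is the other one. It stood at 3.39, 2.70 and 2.09 in non-primed, 7.02, 7.42 and 6.82 in primed vehicle, 6.06, 4.16 and 4.14 in vivo and 7.05, 6.73 and 6.41 in vitro. Primed minus non-primed was 6.58 ± 1.35 (SE) for Meg3 (limma adjusted p = 0.00367), 6.35 ± 1.51 for Rian (0.00666), 5.41 ± 1.13 for Mirg (0.00389) and 4.36 ± 0.53 for Dlk1 (0.000739), with 3 libraries a group. All 4 passed. In vivo, Dlk1 fell by 2.30 ± 0.53 (limma adjusted p = 0.0109) with no overlap of the groups, and Mirg fell by 3.34 ± 1.13 (0.0397) although in vivo 1 lies among the controls. Mirg did not pass when primed vehicle 1, 2 or 3 or in vivo 2 or 3 was left out (adjusted p up to 0.154), and Dlk1 did not without in vivo 2 or 3 (up to 0.0507). Meg3 and Rian did not pass in vivo, at -3.30 ± 1.35 (0.0734) and -3.19 ± 1.51 (0.112). Without the libraries labelled non-primed 3 and in vivo 1, all 4 passed in vivo, at -2.93 for Dlk1, -4.96 for Mirg, -5.07 for Meg3 and -5.16 for Rian. In vitro none of the 4 passed, with differences between -0.36 and 0.44. Rtl1, a retrotransposon-derived paternally expressed gene antisense to this RNA array, was at or below 1.75 in all 12 libraries.

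**Figure D2:**
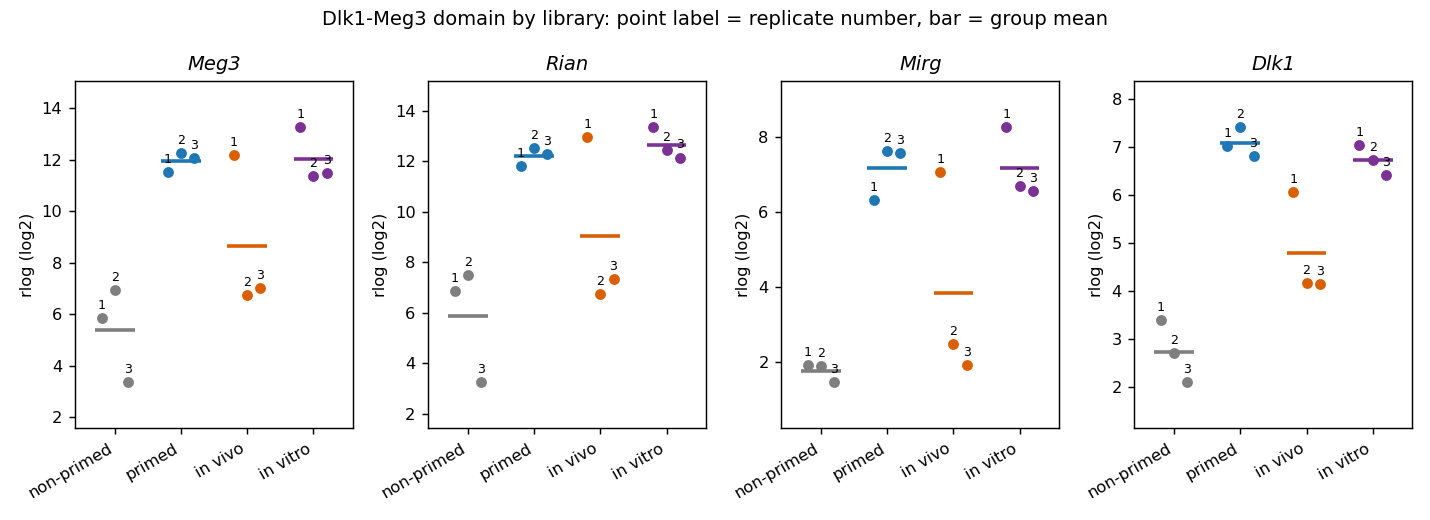
rlog values (log2) of Meg3, Rian, Mirg and Dlk1, 1 point per library labelled with its replicate number, coloured by group, with a bar at each group mean. The in vivo group is split for Meg3, Rian and Mirg: library 1 lies with the primed vehicle and in vitro libraries, libraries 2 and 3 with the non-primed ones (Rian 12.97 against 6.75 and 7.35). For Dlk1, in vivo 1 (6.06) is below all primed vehicle and in vitro libraries. In vivo 2 and 3 (4.16 and 4.14) are above all non-primed ones.

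H19 and Grb10, growth-restraining genes of the maternal class, rose with priming as well. H19, the maternally expressed noncoding RNA beside Igf2 on chromosome 7, was at 2.65, 6.11 and 2.11 in non-primed, 10.11, 8.61 and 9.13 in primed vehicle, 10.15, 2.95 and 2.84 in vivo and 8.78, 8.92 and 9.66 in vitro. It rose by 5.66 ± 1.74 with priming (limma adjusted p = 0.0205), a call that did not pass without non-primed 1, non-primed 3, primed vehicle 1 or primed vehicle 3 (up to 0.0655). In vivo it was at -3.97 ± 1.74 (0.0895), and in the 10-library fit it fell by 6.39 ± 0.84 (9.62e-05). Igf2, the fetal growth factor of this domain, stayed under 3 everywhere, at 2.97, 2.06 and 1.37 in primed vehicle. Grb10, an adaptor that dampens insulin and IGF receptor signalling, was at 8.37, 8.51 and 3.62 in non-primed, 12.78, 12.94 and 13.17 in primed vehicle, 14.28, 8.21 and 7.88 in vivo and 14.04, 13.92 and 13.04 in vitro. It rose by 6.13 ± 1.66 with priming (0.0117) and did not pass in vivo (-2.84 ± 1.66, 0.185) or in vitro (0.70 ± 1.66, 0.845). Its low value in the library labelled non-primed 3 goes with the lowest fibroblast marker mean, 7.58, and without that library and in vivo 1 the priming difference was 4.52 ± 0.27. In that 10-library fit Grb10 fell in vivo by 4.92 ± 0.27 (4.28e-07) and rose in vitro by 0.70 ± 0.24 (0.0449).

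Igf2r, the receptor that clears IGF2 and carries lysosomal enzymes, was high in every library. Its level was 14.48 to 14.77 in non-primed, 15.01 to 15.19 in primed vehicle, 14.47 to 15.79 in vivo and 15.15 to 15.56 in vitro. It passed in no comparison of the 12-library fit (0.48 ± 0.30 for priming, limma adjusted p = 0.204). It rose with priming when only the 6 libraries compared were fitted (0.48 ± 0.12, 0.0183) and in the 10-library fit (0.46 ± 0.13, 0.0139), where it also fell in vivo by 0.59 ± 0.13 (0.00308) and was higher in vitro than in vivo by 0.89 ± 0.13 (0.000327). Airn, the paternal noncoding RNA that overlaps it on the other strand, was at 7.30 to 8.44 in all 12 libraries and also passed in none. The libraries were made with a stranded kit, but the strand setting of the counting is not given in the sources used here, so reads of Igf2r and Airn may not be separable. The same limit touches Mest with Copg2, Zrsr1 with Commd1, Kcnq1ot1 with Kcnq1, Nnat with Blcap, Ube3a with Snhg14 and Gnas with Nespas, which overlap on opposite strands.

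The Ndn-Snrpn domain on chromosome 7, the region that corresponds to that of Prader-Willi and Angelman syndromes, holds 3 genes, Ndn, Snrpn and Peg12, that rose together with priming. Magel2, of the same domain, stayed between -1.21 and -0.29, and Ube3a went the other way. Ndn encodes necdin, a MAGE protein that restrains cell growth. It stood at 7.14, 7.61 and 3.10 in non-primed, 11.97, 11.66 and 11.92 in primed vehicle, 11.69, 7.55 and 7.65 in vivo and 11.31, 11.16 and 11.89 in vitro. Snrpn, which encodes a small nuclear ribonucleoprotein, was at 5.11, 5.56 and 2.45, then 9.58, 9.82 and 9.99, then 9.85, 5.77 and 6.36, and 9.49, 9.51 and 9.63 in the same order. Peg12, an intronless paternally expressed gene, was at 3.21, 3.29 and 1.53, then 7.92, 7.54 and 7.34, then 6.78, 2.54 and 1.64, and 6.02, 6.32 and 7.0. In all 3 genes each primed vehicle library is above each non-primed one.

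With priming, Ndn rose by 5.90 ± 1.25 (limma adjusted p = 0.00405), Snrpn by 5.42 ± 1.02 (0.00271) and Peg12 by 4.93 ± 1.10 (0.00494). Of these 3, Peg12 passed in vivo, where it fell by 3.95 ± 1.10 (0.0200), with all 3 in vivo libraries below all 3 controls. That call was lost when primed vehicle 1, 2 or 3 or in vivo 2 or 3 was left out (adjusted p up to 0.0818). In vitro Peg12 was also below every control library and did not pass with all 12 libraries (0.576). It passed in vitro with the 6 libraries compared (-1.16 ± 0.31, 0.0314) and in the 10-library fit (-1.16 ± 0.34, 0.0245). Ndn and Snrpn did not pass in vitro, at -0.40 ± 1.25 (0.888) and -0.25 ± 1.02 (0.915), or in vivo, at -2.89 ± 1.25 (0.0861) and -2.47 ± 1.02 (0.0750). In the 10-library fit both fell in vivo, Ndn by 4.25 ± 0.22 (3.79e-07) and Snrpn by 3.73 ± 0.24 (9.4e-07). The in vivo libraries of that fit are all pigment-rich and the primed vehicle ones are not.

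Ube3a, the maternally expressed ubiquitin ligase lost in Angelman syndrome, is imprinted mainly in neurons. It was at 13.48, 13.32 and 13.89 in non-primed, 12.89, 12.78 and 12.58 in primed vehicle, 13.24, 13.64 and 13.80 in vivo and 13.26, 13.22 and 12.99 in vitro. All 9 libraries outside primed vehicle lie above those 3. Ube3a fell by 0.81 ± 0.18 with priming (limma adjusted p = 0.00535) and rose by 0.81 ± 0.18 in vivo (0.0100). In vitro it rose with the 6 libraries compared (0.40 ± 0.12, 0.0387; 0.214 with all 12).

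**Figure D3:**
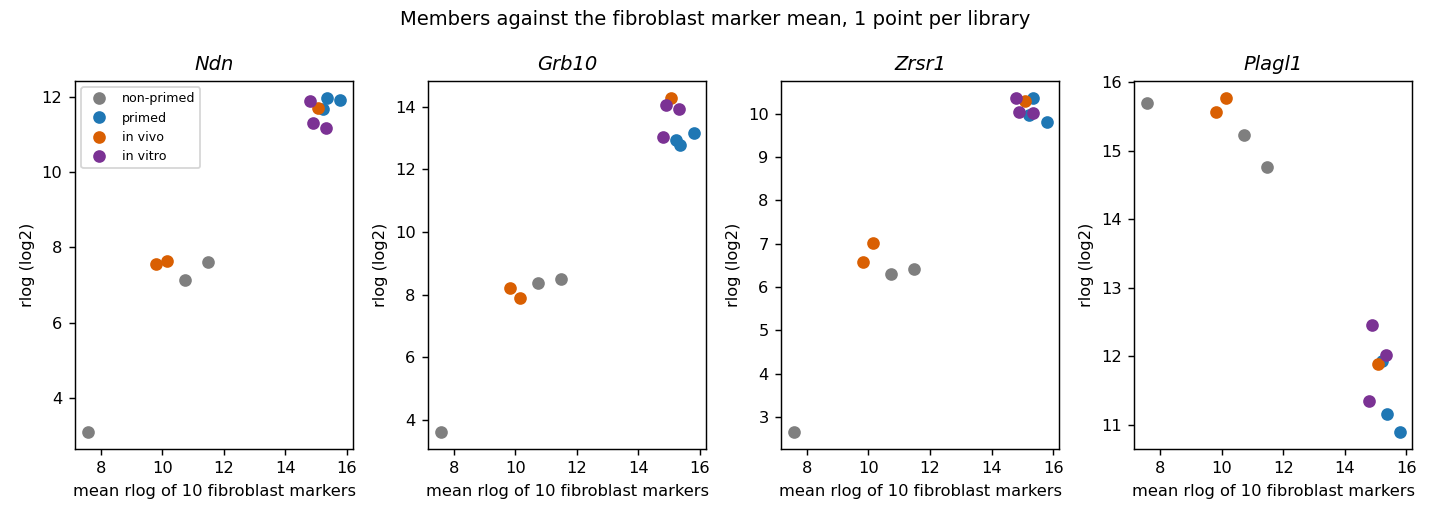
rlog values (log2, vertical axis) of Ndn, Grb10, Zrsr1 and Plagl1 against the mean rlog of the 10 fibroblast markers (horizontal axis), 1 point per library, coloured by group. The first 3 genes are lowest where the fibroblast mean is lowest (7.58, the library labelled non-primed 3, with Ndn at 3.10), and Plagl1 is high in the 5 libraries with a mean of 7.58 to 11.49.

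The paternal genes Zrsr1 and Plagl1 mark the fibroblast and the pigment side. Zrsr1, an intronless splicing-factor gene within an intron of Commd1, was at 6.30, 6.41 and 2.65 in non-primed, 10.37, 9.97 and 9.82 in primed vehicle, 10.30, 6.58 and 7.02 in vivo and 10.03, 10.02 and 10.37 in vitro. Its host Commd1, a regulator of copper handling and NF-kB, was at 10.64, 10.39 and 10.71, then 10.21, 10.06 and 10.21, then 10.38, 10.64 and 10.57, and 10.26, 10.36 and 10.40. The within-library difference Zrsr1 minus Commd1, not set per length, was -8.06 in the library labelled non-primed 3, -4.35 to -3.55 in the other 4 pigment-rich libraries and -0.40 to 0.16 in the 7 fibroblast-rich ones. Zrsr1 rose by 4.93 ± 1.08 with priming (limma adjusted p = 0.00468) and did not pass in vivo (-2.09 ± 1.08, 0.140) or in vitro (0.09 ± 1.08, 0.974). In the 10-library fit it fell in vivo by 3.25 ± 0.22 (1.29e-06). Commd1 fell by 0.42 ± 0.13 with priming (0.0238) and rose by 0.37 ± 0.13 in vivo (0.0494). The first call did not pass without non-primed 1, non-primed 3 or primed vehicle 2, and the second passed in 1 of 6 fits that leave out a library.

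Plagl1, a zinc-finger factor that regulates a network of other imprinted genes, was at 15.22, 14.76 and 15.69 in non-primed, 11.15, 11.93 and 10.89 in primed vehicle, 11.89, 15.56 and 15.77 in vivo and 12.46, 12.02 and 11.34 in vitro. The 5 pigment-rich libraries are all above 14 and the other 7 all below 13. It fell by 3.89 ± 0.85 with priming (limma adjusted p = 0.00465) and rose by 3.08 ± 0.85 in vivo (0.0199). The in vivo call did not pass without primed vehicle 1, primed vehicle 3, in vivo 2 or in vivo 3 (up to 0.0834), and in vivo 1 lies within the primed vehicle range. In vitro it was at 0.62 ± 0.85 (0.715). One of its RefSeq promoter windows (GRCm38.p6, chr10:13090582-13090881, + strand, inside the annotated gene) holds the hexamer once and is shown as a member of the pigment-side set, capitals as above.
Plagl1: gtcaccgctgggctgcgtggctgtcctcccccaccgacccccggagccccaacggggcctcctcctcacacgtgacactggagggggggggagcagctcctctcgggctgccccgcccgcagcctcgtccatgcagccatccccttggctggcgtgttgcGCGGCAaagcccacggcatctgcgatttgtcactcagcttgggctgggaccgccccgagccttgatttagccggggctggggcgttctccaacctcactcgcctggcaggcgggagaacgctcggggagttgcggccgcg

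In the Peg10-Sgce domain on chromosome 6, Peg10 and Sgce separated the treated from the primed vehicle libraries in opposite directions. Peg10, a retrotransposon-derived gene needed in the placenta (chr6:4747306-4760517), and Sgce, which encodes epsilon-sarcoglycan of the dystrophin complex (chr6:4674350-4747207), start back to back with 98 bases between them, and both are paternally expressed. Peg10 was singled out with its rise in treated libraries already known, so its calls are not independent evidence. Peg10 was at 9.83, 8.88 and 9.31 in primed vehicle, 12.76, 14.98 and 15.06 in vivo and 12.49, 12.23 and 11.36 in vitro. Non-primed libraries 1 and 2 were at 11.55 and 12.18, and the library labelled non-primed 3, the one with high Hexim1, was at 15.14. The 6 treated libraries are all above the 3 primed vehicle ones, as they also are for Copg2, Ube3a and Commd1. For Peg10, non-primed 1 and 2 lie within the range of the treated libraries.

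Peg10 rose by 4.93 ± 0.88 in vivo (limma adjusted p = 0.00429), and this call held without each of the 6 libraries in turn. In vitro the difference was 2.69 ± 0.88 (0.102), and it passed with the 6 libraries compared (2.69 ± 0.34, 0.00341). For the library labelled in vivo 1 alone it was 3.42 ± 1.16 (0.138). With priming Peg10 fell by 3.62 ± 0.88 (0.00737), or by 2.53 ± 0.35 without the libraries labelled non-primed 3 and in vivo 1.

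Sgce was lower than primed vehicle in the same 6 treated libraries in which Peg10 was higher. It was at 12.31, 12.05 and 10.78 in non-primed, 11.26, 10.98 and 11.27 in primed vehicle, 9.39, 10.71 and 10.64 in vivo and 9.09, 9.20 and 9.54 in vitro, with no overlap between treated and primed vehicle libraries. In vitro Sgce fell by 1.89 ± 0.42 (limma adjusted p = 0.0380). That call was lost when primed vehicle 1, 2 or 3 or in vitro 1, 2 or 3 was left out (up to 0.152) and passed with the 6 libraries compared (-1.89 ± 0.16, 0.00200). In vivo it did not pass (-0.93 ± 0.42, 0.101). The library labelled in vivo 1 alone gave -1.78 ± 0.51 (0.0964), and in the 10-library fit Sgce fell in vivo by 0.50 ± 0.16 (0.0187) and with priming by 1.01 ± 0.16 (0.000362). The within-library difference Peg10 minus Sgce, also not set per length, was -1.43, -2.10 and -1.97 in primed vehicle, 3.37, 4.27 and 4.42 in vivo and 3.40, 3.03 and 1.81 in vitro. It was -0.76 and 0.13 in non-primed 1 and 2 and 4.36 in the library labelled non-primed 3. This difference is a description and was not tested, since Peg10 was chosen with its rise known. Among pigment-rich libraries it thus separates non-primed 1 and 2 from in vivo 2 and 3, and among the others primed vehicle from in vitro and in vivo 1.

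Ppp1r9a lies downstream of Peg10 and encodes neurabin, an actin-binding partner of protein phosphatase 1. Like Sgce, Ppp1r9a was below primed vehicle in vitro and in the library labelled in vivo 1. Unlike Sgce, it was above primed vehicle in in vivo 2 and 3. It was at 12.30, 12.10 and 11.61 in non-primed, 7.99, 7.70 and 7.66 in primed vehicle, 6.18, 11.50 and 11.55 in vivo and 5.76, 5.44 and 7.17 in vitro. It fell by 4.22 ± 1.18 with priming (limma adjusted p = 0.0136). In vivo it did not pass (1.96 ± 1.18, 0.195), with in vivo 1 below and in vivo 2 and 3 above the controls, and in the 10-library fit it rose by 3.75 ± 0.42 (3.16e-05). In vitro all 3 libraries are below the controls, and it passed with the 6 libraries compared (-1.66 ± 0.45, 0.0319; 0.436 with all 12).

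**Figure D4:**
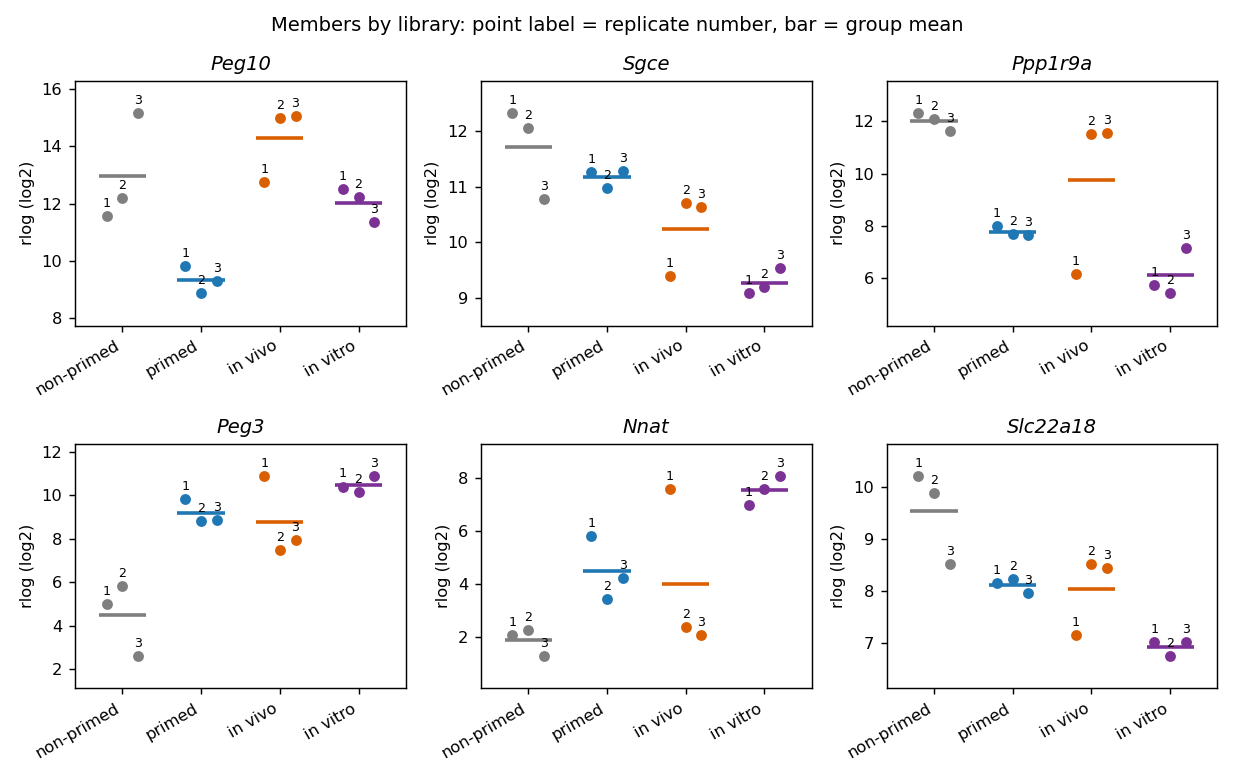
rlog values (log2) of Peg10, Sgce, Ppp1r9a, Peg3, Nnat and Slc22a18, 1 point per library labelled with its replicate number, coloured by group, with a bar at each group mean. Peg10 is above and Sgce below the 3 primed vehicle libraries in all 6 treated ones, whereas Ppp1r9a, Nnat and Slc22a18 have in vivo 1 beside the in vitro libraries and in vivo 2 and 3 on the other side of the controls.

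Peg3 and Nnat were the other paternal genes that rose in vitro with the 6 libraries compared. Peg3, a zinc-finger repressor with roles in growth and maternal behaviour, was at 5.00, 5.83 and 2.61 in non-primed, 9.83, 8.81 and 8.85 in primed vehicle, 10.88, 7.49 and 7.94 in vivo and 10.40, 10.16 and 10.87 in vitro. It rose by 4.68 ± 0.94 with priming (limma adjusted p = 0.00341) and did not pass in vivo (-0.39 ± 0.94, 0.754). In the 10-library fit it fell in vivo by 1.44 ± 0.37 (0.00650). In vitro it passed with the 6 libraries compared (1.32 ± 0.32, 0.0214; 0.441 with all 12). Its neighbour Usp29 is transcribed the other way from 146 bases upstream and stayed at or below 2.29, although the RefSeq promoter windows of the 2 genes share 263 bases. The Peg3 window is shown for this reason (GRCm38.p6, chr7:6730370-6730669, - strand), with the shared bases in capitals, and it holds no TGCCGC on either strand.
Peg3: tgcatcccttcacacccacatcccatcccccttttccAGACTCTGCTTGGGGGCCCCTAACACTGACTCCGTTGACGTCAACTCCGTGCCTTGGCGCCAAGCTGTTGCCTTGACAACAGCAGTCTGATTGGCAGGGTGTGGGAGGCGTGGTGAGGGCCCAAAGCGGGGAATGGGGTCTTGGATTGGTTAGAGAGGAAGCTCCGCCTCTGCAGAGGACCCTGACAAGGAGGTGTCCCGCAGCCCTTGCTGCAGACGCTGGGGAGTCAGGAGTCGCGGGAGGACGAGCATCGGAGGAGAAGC

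Nnat, a small membrane protein of the endoplasmic reticulum (neuronatin) within an intron of Blcap, was at 2.06, 2.27 and 1.28 in non-primed, 5.81, 3.43 and 4.21 in primed vehicle, 7.59, 2.37 and 2.06 in vivo and 6.97, 7.59 and 8.08 in vitro. All 3 in vitro libraries and in vivo 1 lie above the highest control. It did not pass in vitro with all 12 libraries (3.06 ± 1.25, limma adjusted p = 0.171) and passed with the 6 compared (3.06 ± 0.62, 0.0122). Blcap, which overlaps it, fell by 1.38 ± 0.36 in vivo (0.0155) and by 0.51 ± 0.14 in vitro with the 6 libraries compared (0.0363). Nnat did not pass with priming (2.61 ± 1.25, 0.103), although it did with only those 6 libraries (2.61 ± 0.64, 0.0153). In vivo it was at -0.47 ± 1.25 (0.775), and in the 10-library fit it fell by 2.27 ± 0.61 (0.00789). Its RefSeq promoter window (GRCm38.p6, chr2:157559828-157560127, + strand) is shown because its in vitro difference was the largest in size of the 27, with the hexamer in capitals.
Nnat: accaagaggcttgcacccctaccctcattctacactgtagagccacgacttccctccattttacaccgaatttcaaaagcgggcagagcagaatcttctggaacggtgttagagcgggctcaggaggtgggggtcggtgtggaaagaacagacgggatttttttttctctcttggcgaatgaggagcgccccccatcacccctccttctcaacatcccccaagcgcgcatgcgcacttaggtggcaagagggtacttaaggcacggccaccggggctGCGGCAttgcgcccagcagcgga

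Mest and Copg2 overlap at their 3′ ends on chromosome 6. Mest, a hydrolase-like protein of mesoderm, was at 6.60, 8.43 and 10.66 in non-primed, 9.00, 8.29 and 7.10 in primed vehicle, 8.52, 10.58 and 10.60 in vivo and 9.27, 8.29 and 9.29 in vitro. The library labelled non-primed 3, in vivo 2 and 3 and in vitro 1 and 3 are above the highest primed vehicle value, and the groups overlap. Mest passed in no comparison of the 12-library fit (in vivo 1.77 ± 0.95, limma adjusted p = 0.153). In the 10-library fit it rose in vivo by 2.46 ± 0.62 (0.00563), and its priming difference, not called in either fit, went from -0.43 ± 0.95 to 0.62 ± 0.62. Copg2, a coatomer subunit, was at 13.91, 13.64 and 13.69, then 12.07, 12.15 and 12.22, then 12.57, 13.55 and 13.57, and 12.49, 12.67 and 12.34. All treated libraries are above the primed vehicle ones. It fell by 1.60 ± 0.23 with priming (0.00128) and rose by 1.08 ± 0.23 in vivo (0.00837). In vitro it rose with the 6 libraries compared (0.35 ± 0.10, 0.0425; 0.400 with all 12).

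The Kcnq1ot1 domain on distal chromosome 7 was mixed. Kcnq1ot1, the long silencing RNA of the paternal copy, ranged from 7.41 to 9.73 and passed in no comparison of the 12-library fit. In vivo it was at 0.71 ± 0.57 (limma adjusted p = 0.329) and rose by 1.26 ± 0.36 in the 10-library fit (0.0103). Slc22a18, a transporter of the maternal class, was at 10.21, 9.89 and 8.51 in non-primed, 8.15, 8.23 and 7.96 in primed vehicle, 7.15, 8.51 and 8.44 in vivo and 7.02, 6.75 and 7.02 in vitro. It fell by 1.42 ± 0.46 with priming (limma adjusted p = 0.0262), a call that passed in 1 of 6 fits that leave out a library. In vivo it was at -0.08 ± 0.46 (0.899) and at 0.36 ± 0.18 in the 10-library fit (0.107). In vitro it passed with the 6 libraries compared (-1.18 ± 0.19, 0.00554; 0.157 with all 12). Phlda2, its neighbour and a brake on placental growth, was too low for the test, at 3.05, 3.63 and 2.96 in primed vehicle against 1.80, 1.34 and 1.95 in vitro. Cd81, a widely expressed tetraspanin, stayed between 14.68 and 15.86 and passed in no comparison of the 12-library fit. In the 10-library fit it rose with priming by 0.41 ± 0.16 (0.0453) and fell in vivo by 0.84 ± 0.16 (0.000922).

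Impact and Gnas, of domains of their own, also rose with priming. Impact, an inhibitor of the stress kinase GCN2, was at 11.86, 12.20 and 12.00 in non-primed, 13.84, 13.62 and 13.21 in primed vehicle, 13.65, 12.16 and 12.35 in vivo and 13.91, 13.98 and 13.98 in vitro, and rose by 1.53 ± 0.33 with priming (limma adjusted p = 0.00424). It was at -0.83 ± 0.33 in vivo (0.0655) and fell by 1.30 ± 0.17 in the 10-library fit (9.79e-05). Gnas, the stimulatory G-protein subunit, biallelic in most tissues, was at 16.18, 16.21 and 16.16, then 16.75, 16.75 and 16.88, then 16.82, 16.20 and 16.15, and 16.75, 16.80 and 16.78. It rose by 0.61 ± 0.18 with priming (0.0162), did not pass without primed vehicle 3 (0.0529), and changed sign under quantile normalization of the libraries (-0.14, 0.436). In vivo it was at -0.40 ± 0.18 (0.0912) and fell by 0.62 ± 0.09 in the 10-library fit (0.000220).

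**Figure D5:**
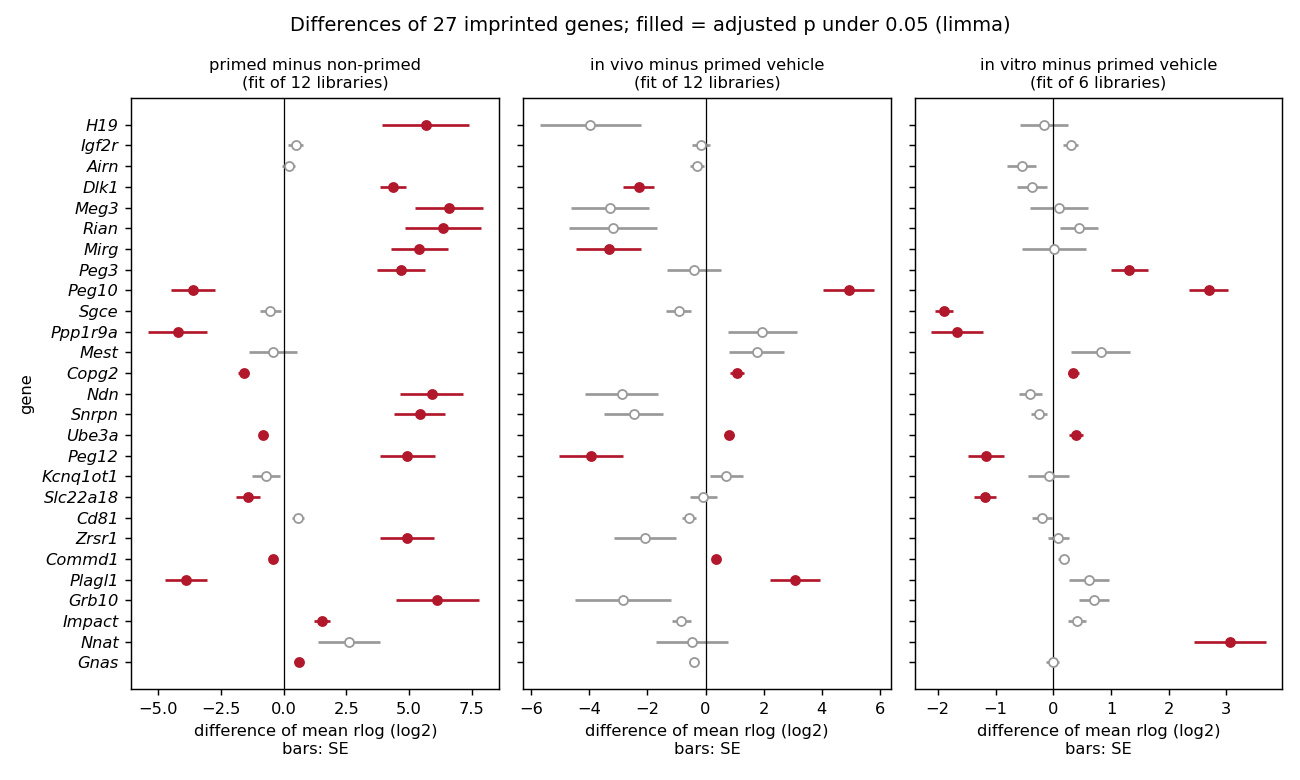
Difference of mean rlog (log2, points) with its SE (bars) for the 27 tested imprinted genes in 3 comparisons, each panel with its own horizontal scale; filled red points passed limma at an adjusted p under 0.05. The left panel has 20 filled points, the middle 8 and the right, from the fit of only the 6 libraries compared, 9.

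Other imprinted genes from the same or further domains, 38 in all with 26 tested, were read the same way. With priming 14 rose and 4 fell, led by Dcn (7.51 ± 1.37, also 1 of the fibroblast markers above), Atp10a (6.19 ± 0.99) and Tfpi2 (6.12 ± 1.30). These 18 are 69.2% of the 26, beside 51.8% of all genes. In vivo 2 rose and 8 fell (38.5%, beside 39.7% of all genes), led by Ascl2 (-5.96 ± 0.74), Tfpi2 (-4.88 ± 1.30) and Dcn (-4.65 ± 1.37). With only the 6 libraries compared 1 rose and 4 fell in vivo (19.2%, beside 24.0% of all genes). In vitro Trappc9 rose by 0.88 ± 0.22 (limma adjusted p = 0.0480), and Ascl2 fell by 3.84 ± 0.74 (0.0258) and Jade1 by 1.30 ± 0.22 (0.0165), 11.5% of the 26 beside 4.51% of all genes. With only the 6 libraries compared 2 rose and 6 fell in vitro (30.8%, near the 30.3% of all genes). Ascl2, a maternally expressed helix-loop-helix factor of the placenta in the Kcnq1ot1 domain, was at 6.54, 6.87 and 9.16 in primed vehicle, 2.13, 1.41 and 1.14 in vivo and 3.25, 3.01 and 4.78 in vitro. Every treated library is below every primed vehicle one, but no primed vehicle library is pigment-rich. For in vivo 2 and 3, which are, I-BET and cell make-up cannot be told apart. In non-primed libraries, all pigment-rich, Ascl2 was at 2.08, 2.44 and 0.92. The median difference of the 26 was 1.41 with priming, -1.33 in vivo and -0.04 in vitro. Without the libraries labelled non-primed 3 and in vivo 1 the counts were 16 higher and 4 lower, 3 and 16, and 3 and 7. Those counts are 76.9%, 73.1% and 38.5% of the 26, beside 63.4%, 68.4% and 35.7% of all genes.

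Of 20 genes that set, keep or erase imprints, 18 were tested. With priming 1 rose and 15 fell, with Tet1 at -3.18 ± 0.74 and Uhrf1 at -2.81 ± 0.57 among them, 88.9% beside 51.8% of all genes. In vivo 9 rose and 2 fell (61.1% beside 39.7%), and with only the 6 libraries compared 2 rose and 2 fell (22.2% beside 24.0%). Dnmt3l, the cofactor of the de novo methyltransferases that is best known from germ cells, was the gene that rose with priming: it rose by 5.61 ± 0.73 with priming (limma adjusted p = 0.000891) and fell by 6.26 ± 0.73 in vivo (0.00134) and by 3.84 ± 0.73 in vitro (0.0258). It stood at 8.59, 8.78 and 8.75 in primed vehicle against 3.70, 1.78 and 1.84 in vivo, 3.72, 4.79 and 6.09 in vitro and 3.62, 3.81 and 1.85 in non-primed libraries, so no library of another group reached the primed vehicle ones. Uhrf1 and Tet3 rose in vivo by 1.88 ± 0.57 (0.0271) and 1.60 ± 0.42 (0.0163), but Uhrf1 was at 11.45 in in vivo 1, within the 10.83 to 11.63 of primed vehicle, and at 14.02 and 13.94 in in vivo 2 and 3. Of the 18, limma called Dnmt3l alone in vitro in the fit of all 12 libraries. Zfp57, the keeper of imprints, fell in vivo by 1.59 ± 0.45 (0.0207) and, with the 6 libraries compared, in vitro by 1.29 ± 0.27 (0.0144). The median difference of the 18 was -1.17 with priming, 1.10 in vivo and 0.07 in vitro, and without the libraries labelled non-primed 3 and in vivo 1 the counts were 1 higher and 15 lower, 14 and 2, and 4 and 2. Those counts are 88.9%, 88.9% and 33.3% of the 18, beside 63.4%, 68.4% and 35.7% of all genes.

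The 14 IGF-axis genes listed for comparison with Igf2, Igf2r and Grb10 were all tested. With priming 10 rose and 1 fell, led by the binding proteins Igfbp2 (6.64 ± 1.72), Igfbp3 (6.13 ± 1.53) and Igfbp7 (5.57 ± 0.99). These are 78.6% of the 14, beside 51.8% of all genes. In vivo 4 fell and none rose (28.6%, below the 39.7% of all genes), with Igfbp3 at -4.85 ± 1.53, Igfbp7 at -2.88 ± 0.99 and Igfbp4 at -2.48 ± 0.74. In the fit of only the 6 libraries compared in vivo, limma called none of the 14 (24.0% of all genes), and 6 had an unadjusted p under 0.05. In vitro limma called none in the fit of all 12 libraries, and none had an unadjusted p under 0.05. With only the 6 libraries compared 1 rose and 3 fell (28.6%, near the 30.3% of all genes), with Igfbp3 at -2.10 ± 0.40 (limma adjusted p = 0.0103). The median difference of the 14 was 2.85 with priming, -2.37 in vivo and -0.22 in vitro, and without the libraries labelled non-primed 3 and in vivo 1 the counts were 10 higher and 2 lower, 1 and 12, and 2 and 5. Those counts are 85.7%, 92.9% and 50.0% of the 14, beside 63.4%, 68.4% and 35.7% of all genes.

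RefSeq promoter windows of 300 bases, from 250 before to 50 after a gene's start, were matched for 29 of the 34 genes, 44 windows in all. Peg10, Sgce, H19, Impact and Rtl1 had none. The hexamer TGCCGC, searched on both strands, was in 11 of the 44 windows (25.0%), of 10 genes, against 11.6% of all 32851 windows. The windows also held more CpG, a median of 13.5 against 7.0 over all windows, and CpG-rich windows offer more chances for a hexamer that itself holds a CpG. The core of the CTCF motif, on both strands, was in 3 of the 44 windows. That is a larger share than the 3.0% of all windows, but a small count. A match is a string of letters and says nothing of whether a factor binds there in these cells.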

How the data were processed

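The authors deposited 1 table of rlog values, log2-scaled and normalized, for 55413 Ensembl genes in 12 libraries. The submitters' processing notes list STAR 2.6.1c, cutadapt 1.18, DESeq2 1.24.0, Subread 1.6.1 and featureCounts, and the notes name the build GRCm38. The extraction labels name a stranded mRNA kit, without the counting's strand setting. The deposited log2 values are not counts, so depth per library and counting error are unknown. Their precision is that of 3 libraries a group, and 19136 genes are listed at 0 throughout.

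Groups and replicate numbers follow the sample titles. Symbols came from the reference name table, where all 55413 identifiers matched. Genes with a mean rlog of at least 3 (16459) were tested with limma 3.58.1 in R 4.3.3, with 1 mean per group, all 12 libraries, moderated variances with a trend and Benjamini-Hochberg adjustment over all genes, called at an adjusted p under 0.05. 4 comparisons were made: primed vehicle minus non-primed, in vivo and in vitro each minus primed vehicle, and in vitro minus in vivo. The procedure was tested on simulated data. The members, companion lists and marker lists (melanocyte, fibroblast, macrophage, endothelial, Schwann, skeletal muscle, chondrocyte and keratinocyte) were chosen with earlier results of these data known. All 34 imprinted genes are named, and up to 3 called genes with the largest difference from each companion list. Blcap, Zfp57, Peg13 and Hexim1 were added after their values were seen. Alternatives were the filter, the variance trend, scaling, the libraries in the fit, a replicate block and libraries left out. Leaving out the libraries labelled non-primed 3 and in vivo 1 together was chosen after seeing the data. Coordinates are GRCm38 (GENCODE M21), promoter windows RefSeq GRCm38.p6. Figures were drawn with matplotlib 3.10.9 in Python 3.11.15.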

Additional observations from a re-analysis of the deposited data

How the results depend on the processing

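Over the 4 comparisons, counts of imprinted genes called moved with the libraries in the fit far more than with the filter, the variance trend or the scaling, under which every count stayed within 1.5 times its value. With only the 6 libraries compared, calls in vivo were 3 higher and 1 lower, and in vitro 5 higher and 4 lower. With in vivo 2 and 3 left out together they were 0 and 0 in vivo. With the libraries labelled non-primed 3 and in vivo 1 left out together, an alternative chosen after seeing the data, calls were 8 higher and 17 lower in vivo, 6 and 4 in vitro, and 16 and 9 for in vitro against in vivo. Leaving out 1 library at a time gave 11 to 13 higher and 5 to 7 lower with priming, 3 to 6 higher and 0 to 15 lower in vivo (15 without in vivo 1), 0 to 0 in both directions in vitro, and 0 to 16 higher and 0 to 7 lower for in vitro against in vivo (16 and 7 without in vivo 1). Calls over all 16459 genes moved too. Without in vivo 1 they were 4450 higher and 5512 lower in vivo, against 2946 and 3585 with all libraries. For in vitro against in vivo they were 4474 higher and 3611 lower, against 0 and 0. Fits that leave 1 in vivo library assume that it varies like the other groups. The cause was not tested. In vivo, the Mirg call was also lost with no filter and under quantile normalization, and that of Commd1 with no filter, without the variance trend and with the replicate block. The replicate block left 0 lower calls in vitro. Its check does not show pairing: correlations of same-numbered libraries' deviations ranged from -0.435 to 0.369. It cannot exclude pairing either, with 3 libraries a group and the non-primed and in vivo groups uneven. Gnas reversed with priming under quantile normalization (-0.14, limma adjusted p = 0.436), where the median difference of all genes moved from 0.05 to -0.24 and calls over all genes from 4754 higher and 3774 lower to 3858 and 5680. In vivo the same change moved calls over all genes from 2946 higher and 3585 lower to 4595 and 2967. Median-centring gave 4209 and 4434 with priming and 4029 and 2964 in vivo.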

Other observations

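Peg13 and Trappc9, which share an imprinted locus and belong to the companion list, were both higher in every fibroblast-rich treated library than in primed vehicle. Peg13 was at 11.50, 11.17 and 11.07 in primed vehicle, 12.26 in the library labelled in vivo 1 and 12.07, 12.16 and 12.12 in vitro. Trappc9 was at 11.41, 11.55 and 11.43, then 12.47, and 12.39, 12.52 and 12.13. In in vivo 2 and 3 Peg13 was at 11.15 and 11.15 and Trappc9 at 11.75 and 11.62. With only the 6 libraries compared Peg13 rose by 0.87 ± 0.12 in vitro (limma adjusted p = 0.00424) and Trappc9 by 0.88 ± 0.12 (0.00371).

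Among the 27 tested imprinted genes the library labelled in vivo 1 was nearer to the in vitro mean than to the mean of in vivo 2 and 3 in 26, Airn being the exception. The library labelled non-primed 3 was nearer to in vivo 2 and 3 than to non-primed 1 and 2 in 15 of the 27. The same counts over all tested genes were not made, so 26 and 15 cannot be read as particular to imprinted genes. The 12 genes for which the library labelled non-primed 3 was not nearer to in vivo 2 and 3 fell into 2 kinds. In Dlk1, Meg3, Mirg, Peg3, Ndn, Snrpn, Zrsr1 and Nnat it was lower than every other library. In Igf2r, Airn, Copg2 and Impact it was not. It was also the lowest library in H19, Rian, Grb10, Peg12 and Cd81, which are among the 15.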
